A study of Mus musculus with 8 samples.

Results

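Mesenchymal stem/stromal cells (MSCs) of bone marrow are recognised by a panel of surface proteins and by a few progenitor genes. The genes described here are 10 of those markers, *Eng* (CD105), *Thy1* (CD90), *Nt5e* (CD73), *Ly6a* (Sca-1), *Cd44*, *Pdgfra*, *Pdgfrb*, *Mcam* (CD146), *Alcam* (CD166) and *Nes* (nestin), chosen by symbol from a table of 24346 genes. All 10 had a row in that table, and all 10 were among the 15342 that averaged 0.1 RPKM or more and were tested. RPKM is a read density normalized for transcript length and for library size, so that levels are per length and may be compared between genes.

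The libraries were 8, with 2 in each of 4 groups: undifferentiated WT MSCs, differentiating WT MSCs, undifferentiated *Dnmt3l* KO MSCs and differentiating *Dnmt3l* KO MSCs. *Dnmt3l* codes for a cofactor of the de novo DNA methyltransferases. The KO mice carried the tmEnls allele on both chromosomes and the WT mice were their +/+ littermates, all female, in a C57BL/6 background and 8 to 16 weeks old. Cells cultured from bone marrow and minced leg bones were depleted of CD11b and CD45 positive cells and used at passage 4, and for each experiment MSCs of 3 mice were mixed by genotype. Undifferentiated MSCs grew in medium with 20% FBS. Differentiating MSCs had spent 3 days in osteogenic medium with 10% FBS, 0.1 μM dexamethasone, 10 mM β-glycerophosphate and 50 μM ascorbic acid 2-phosphate, so that the inducers, the serum and the time in culture cannot be told apart in that comparison. Whether libraries of the same group were made from separate mixes of mice is not given in the sources used here, and p-values measure the spread between these libraries only, which may be technical.

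Surface markers of MSCs belong to several protein families. Endoglin is a co-receptor for TGF-β family ligands, and PDGFRα and PDGFRβ are receptor tyrosine kinases that bind platelet-derived growth factors. THY1, SCA-1 and CD73 are anchored by a lipid in the outer layer of the cell membrane, and CD73 turns extracellular AMP into adenosine. CD44 is a receptor for hyaluronan, whereas MCAM and ALCAM are adhesion molecules of the immunoglobulin superfamily. Nestin is an intermediate filament protein of progenitor cells. In mouse bone marrow, PDGFRα with SCA-1 and nestin or MCAM have been used to define stromal progenitors and perivascular cells, and the human panel of CD105, CD90 and CD73 is used as a working definition of cultured MSCs.

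*Dnmt3l* itself was read at 1.56 and 1.09 RPKM in undifferentiated WT MSCs and at 0.845 and 0.830 RPKM in differentiating WT MSCs, and it was listed at 0 in all 4 KO libraries. The paper reports that the WT reads of this gene covered only its later exons. It did not detect the canonical DNMT3L protein in MSCs. The steps between low values gave an estimated depth of 47.3 to 66.9 M reads per library. Behind the 10 markers stood at least 109 estimated reads in any library, for *Nes*, and at most 98667, for *Ly6a*. Within groups, libraries differed beyond sampling noise on estimated reads, with a mean chi-square per gene of 3.60 to 22.4 and a median of 0.829 to 2.93. Both were largest in differentiating KO MSCs. These reads were estimated with the longest transcript of each gene. Reads from 10.0% of the 50-base windows of *Ly6a* could also come from other genes, mostly *Ly6c1*. For *Pdgfra* and *Alcam* that share was 0.177% and 0.134%, and it was 0% for the other 7 markers.

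For 3 of the markers the sequence before the RefSeq transcription start is shown, because *Pdgfra* had the largest rise and *Mcam* and *Nes* the largest falls of the panel after induction. Each sequence is the 250 bases before the RefSeq start in GRCm38.p6 (mm10), on the plus strand, on which all 3 genes lie. The GENCODE annotation starts *Mcam* at 44134469 and *Nes* at 87971078, each within its window. Most of the *Mcam* window and the last bases of the *Nes* window thus lie after the GENCODE start. Positions are counted from the RefSeq start. Capitals mark matches to motifs searched on both strands: the GC box GGGCGG, the TATA box TATAAA, the CCAAT box CCAAT, the E-box CACGTG, the AP-1 motif TGANTCA, the glucocorticoid receptor motif TGTTCT and the CArG box. The windows lie at chr5:75152001-75152250, chr9:44134408-44134657 and chr3:87970843-87971092.
Pdgfra: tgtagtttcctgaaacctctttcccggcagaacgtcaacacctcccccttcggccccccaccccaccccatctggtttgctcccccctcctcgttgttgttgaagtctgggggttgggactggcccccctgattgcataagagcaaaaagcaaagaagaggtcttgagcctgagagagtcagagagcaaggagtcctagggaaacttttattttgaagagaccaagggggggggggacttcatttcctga
Mcam: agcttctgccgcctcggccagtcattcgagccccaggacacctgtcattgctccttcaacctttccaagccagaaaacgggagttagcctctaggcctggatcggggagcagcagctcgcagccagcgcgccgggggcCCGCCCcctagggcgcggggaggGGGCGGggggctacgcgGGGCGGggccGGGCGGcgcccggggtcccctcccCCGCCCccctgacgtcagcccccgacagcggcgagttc
Nes: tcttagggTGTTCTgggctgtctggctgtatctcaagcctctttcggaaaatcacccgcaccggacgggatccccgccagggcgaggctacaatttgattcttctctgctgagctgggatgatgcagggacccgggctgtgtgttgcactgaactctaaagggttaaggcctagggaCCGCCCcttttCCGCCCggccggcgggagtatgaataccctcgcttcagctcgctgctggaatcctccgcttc

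The *Pdgfra* window held 4 CpG dinucleotides and no match to any of the 7 motifs. The *Mcam* window held 25 CpG and 5 GC boxes, the last at positions -38 to -33 from the RefSeq start. All 5 lie after the GENCODE start and so inside the gene as GENCODE draws it. The *Nes* window held 15 CpG, 2 GC boxes and 1 glucocorticoid receptor motif at positions -242 to -237. Among 32851 windows of the same length the median was 6 CpG, and a match was found to the GC box in 32.7%, the TATA box in 12.4%, the CCAAT box in 33.8%, the E-box in 6.02%, the AP-1 motif in 6.75%, the glucocorticoid receptor motif in 16.1% and the CArG box in 1.47%. Windows were read for 7 of the 10 markers. Those of *Nt5e* and *Alcam*, which lie inside the genes as GENCODE draws them, held 21 and 22 CpG with 4 and 2 GC boxes, and the *Alcam* window also held 1 CCAAT box. Those of *Eng* and *Cd44* held 4 and 5 CpG and no match. A match of letters is a description of the window and not a binding site.

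The panel spanned a wide range in undifferentiated WT MSCs. *Ly6a* had the highest mean with 474 RPKM, which was 74.5 times the mean of *Nt5e*, the lowest at 6.36 RPKM. Between them lay *Cd44* at 174, *Pdgfrb* at 83.2, *Thy1* at 62.3, *Pdgfra* at 20.5, *Eng* at 11.5, *Mcam* at 10.7, *Nes* at 7.78 and *Alcam* at 6.42 RPKM. Neighbours in this order did not overlap between their libraries, except *Alcam* and *Nt5e*. All 10 markers were read above 6 RPKM in the undifferentiated WT cells, whereas *Ptprc*, which codes for CD45, reached at most 0.127 RPKM in any library and *Itgam*, which codes for CD11b, at most 0.356 RPKM.

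**Figure D1:**
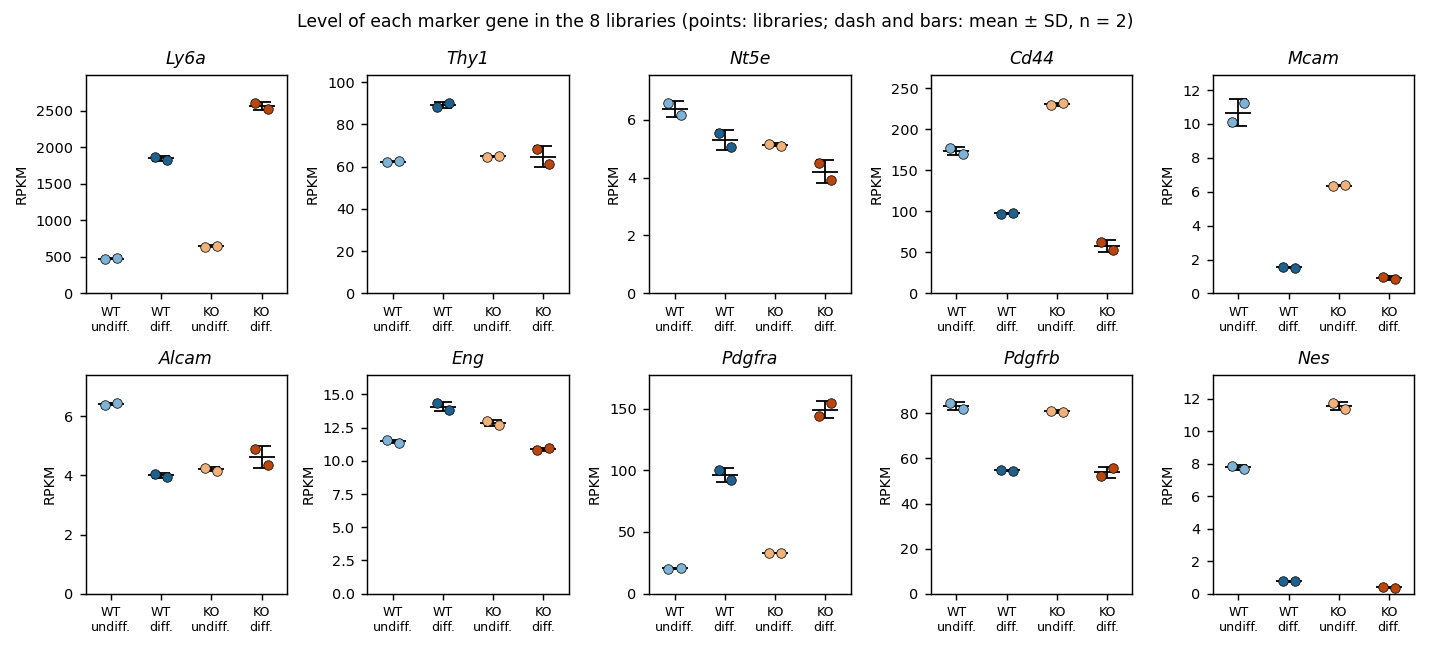
Level of each of the 10 markers in RPKM (vertical axis from 0, a scale for each gene) in the 4 groups; points are libraries, the dash is the mean and the bars are the SD of 2 libraries. *Pdgfra* and *Ly6a* are highest in differentiating KO MSCs, *Mcam* and *Nes* fall to under 2 RPKM after induction in both genotypes, and *Eng*, *Thy1* and *Alcam* change by less than 1 on the log2 scale.

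Induction was compared first in WT MSCs. All 10 markers passed the test, 4 higher and 6 lower in differentiating cells, with an adjusted p under 0.05 in limma and Benjamini-Hochberg adjustment over all 15342 genes. Of all genes 64.4% passed, 31.6% higher and 32.8% lower, so that passing was common. With an absolute log2 difference above 1 as well, which defined a DEG, 2 markers were higher and 2 lower. DEGs made up 14.3% of all genes, 9.69% higher and 4.63% lower. The median log2 difference of the panel was -0.43, beside 0.00 over all genes tested.

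In KO MSCs, 8 markers passed, 2 higher and 6 lower in differentiating cells, where 72.9% of all genes passed, 36.4% higher and 36.6% lower. DEGs were 2 higher and 3 lower markers, beside 22.9% of all genes, 13.0% higher and 9.87% lower. The panel's median log2 difference was -0.26, beside 0.00 over all genes. In 5 markers induction differed between genotypes by the interaction term, 1 with a positive and 4 with a negative value, and 2 of these were beyond 1. Among all genes 39.4% passed that test, 19.4% positive and 20.0% negative, and 6.17% were also beyond 1, 2.76% positive and 3.42% negative.

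**Figure D2:**
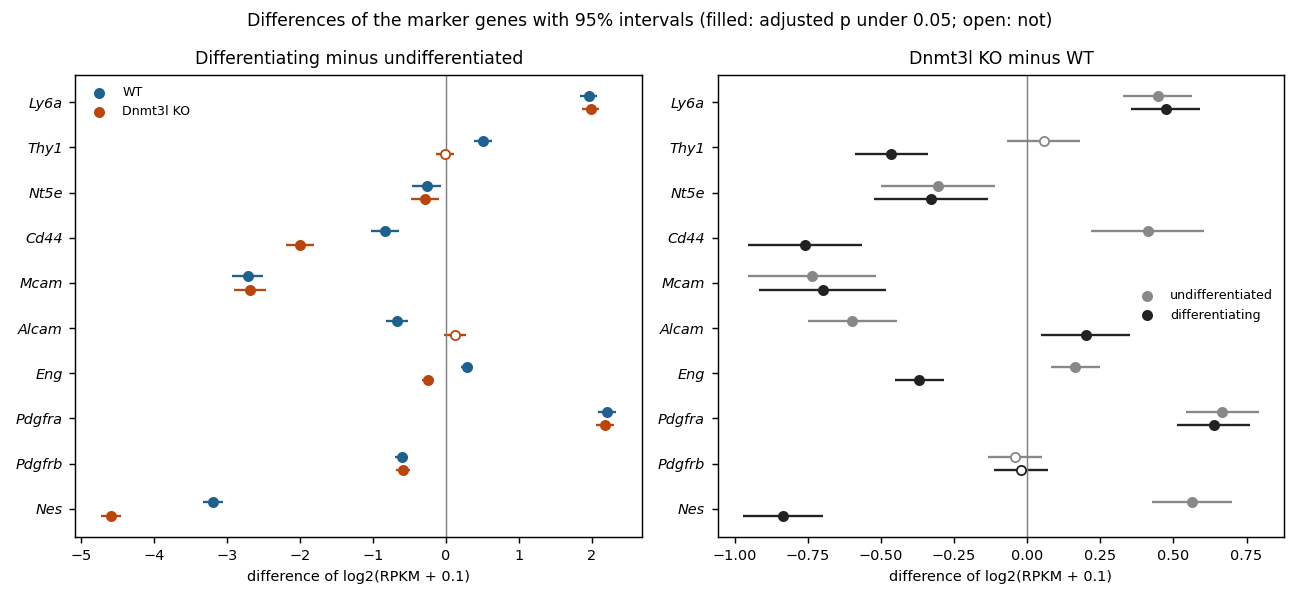
Difference of log2(RPKM + 0.1) of the 10 markers with its 95% interval from the model, for induction in WT and KO MSCs on the left and for KO minus WT in undifferentiated and differentiating MSCs on the right. Filled points had an adjusted p under 0.05; in KO minus WT, *Cd44*, *Nes*, *Eng* and *Alcam* have filled points on opposite sides of 0 in the undifferentiated and the differentiating cells, and *Thy1* has an open and a filled one.

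*Pdgfra*, the receptor that marks many mesenchymal progenitors, lies on chromosome 5 of mm10 (75152292 to 75198215, plus strand). It was read at 20.4 and 20.7 RPKM in undifferentiated WT MSCs and at 100.0 and 92.0 in differentiating WT MSCs. In KO MSCs it was read at 32.7 and 32.6 RPKM before induction and at 144 and 154 RPKM after it. No groups overlapped, and the order from high to low was differentiating KO, differentiating WT, undifferentiated KO and undifferentiated WT. On the scale of log2(RPKM + 0.1) it rose with induction by 2.22 ± 0.05 (SE) in WT MSCs (adjusted p = 1.21e-06, limma) and by 2.19 ± 0.05 in KO MSCs (adjusted p = 6.27e-07, limma). The interaction was -0.03 with a 95% interval of -0.21 to 0.15. KO exceeded WT by 0.67 (adjusted p = 0.000725, limma) before and by 0.64 (adjusted p = 0.000908, limma) after induction.

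*Pdgfrb*, the related receptor of pericytes and stromal cells, took another course. Its levels were 84.5 and 82.0 RPKM in undifferentiated WT and 81.3 and 80.5 RPKM in undifferentiated KO MSCs. After induction they were 54.8 and 54.6 RPKM in WT and 52.2 and 55.6 RPKM in KO MSCs, and these groups overlapped. *Pdgfrb* fell by 0.60 on the log2 scale in WT (adjusted p = 4.14e-05, limma) and fell by 0.59 in KO MSCs (adjusted p = 2.61e-05, limma). The genotypes did not differ beyond the spread, with KO minus WT at -0.04 (95% interval -0.13 to 0.05) before and -0.02 (-0.11 to 0.07) after induction. The ratio of *Pdgfra* to *Pdgfrb* was 0.241 and 0.252 in undifferentiated WT libraries, 0.402 and 0.405 in undifferentiated KO, 1.82 and 1.68 in differentiating WT and 2.76 and 2.77 in differentiating KO libraries. *Pdgfra* was thus the lower of the pair in all 4 undifferentiated libraries and the higher in all 4 differentiating ones.

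The ligands of these receptors were described beside them. Of 4 PDGF genes 3 were tested, since *Pdgfb* stayed under 0.036 RPKM in all libraries. After induction 1 rose and 2 fell in each genotype. *Pdgfa* fell by 0.49 in WT (adjusted p = 0.00322, limma) and fell by 1.31 on the log2 scale in KO MSCs (adjusted p = 2.82e-05, limma), and *Pdgfc* fell by 0.80 (adjusted p = 4.4e-05, limma) and fell by 0.77 (adjusted p = 2.92e-05, limma). All 3 were lower in KO than in WT after induction and 2 were lower before it. *Pdgfd* was lower in KO by -0.53 before induction (adjusted p = 0.00291, limma).

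*Eng*, the TGF-β co-receptor, lies on chromosome 2 (32646595 to 32682669, plus strand), where it overlaps *Fpgs* on the other strand. Its levels were 11.6 and 11.4 RPKM in undifferentiated WT, 14.3 and 13.8 in differentiating WT, 13.0 and 12.7 in undifferentiated KO and 10.8 and 10.95 in differentiating KO MSCs. The 4 groups did not overlap, although the highest mean was only 1.29 times the lowest. *Eng* rose with induction in WT MSCs by 0.29 ± 0.03 (SE) on the log2 scale (adjusted p = 0.000518, limma) and fell by 0.24 in KO MSCs (adjusted p = 0.000926, limma). The interaction was -0.53 (adjusted p = 0.00111, limma). KO minus WT was 0.16 before induction (adjusted p = 0.0158, limma) and -0.37 after it (adjusted p = 0.0012, limma). The value before induction did not pass when any of the 4 undifferentiated libraries was left out, with adjusted p from 0.0548 to 0.088.

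Of 9 other TGF-β and BMP receptors and co-receptors, 5 rose and 1 fell with induction in WT, and 7 rose and 1 fell in KO MSCs (6 and 0 with quantile normalization). *Tgfbr3*, the co-receptor betaglycan, went from 11.5 and 10.96 to 81.7 and 71.9 RPKM in WT MSCs and from 19.2 and 19.2 to 95.3 and 108 RPKM in KO MSCs. *Acvrl1*, the type I receptor ALK1 with which endoglin acts, went from 5.91 and 6.20 to 29.0 and 28.3 RPKM in WT and from 5.52 and 5.64 to 37.6 and 39.7 RPKM in KO MSCs. On the log2 scale *Tgfbr3* rose by 2.76 and 2.40 and *Acvrl1* by 2.22 and 2.77 in WT and KO, each past the test. The list's median log2 difference after induction was 0.46 in WT and 0.76 in KO MSCs.

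*Ly6a*, known as Sca-1 and read at the highest level of the panel in every group, lies on chromosome 15 (74994877 to 74998031, minus strand). It was read at 471 and 478 RPKM in undifferentiated WT and at 639 and 653 RPKM in undifferentiated KO MSCs. After induction the levels were 1868 and 1825 RPKM in WT and 2603 and 2523 RPKM in KO MSCs. No groups overlapped, and the order of the 4 groups was that of *Pdgfra*. *Ly6a* rose by 1.96 ± 0.05 (SE) on the log2 scale in WT (adjusted p = 1.46e-06, limma) and by 1.99 in KO MSCs (adjusted p = 7.09e-07, limma), with an interaction of 0.03 (95% interval -0.14 to 0.19). KO exceeded WT by 0.45 before (adjusted p = 0.00207, limma) and by 0.47 after induction (adjusted p = 0.00146, limma). With only the 4 differentiating libraries fitted, the latter had an adjusted p of 0.0536 (limma).

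The Ly6 family of lipid-anchored proteins had 13 listed genes, of which *Ly6g* was not analysed here and 10, *Ly6a* among them, were tested. In each genotype 6 rose and 1 fell with induction. *Ly6c1*, a near neighbour in sequence with which *Ly6a* may share reads, was read at 88.3 and 97.4 RPKM in undifferentiated WT and 670 and 647 RPKM in differentiating WT MSCs. In KO MSCs it was read at 108 and 119 RPKM before induction and at 1252 and 1240.25 RPKM after it. It rose by 2.83 (adjusted p = 1.43e-06, limma) in WT and 3.46 (adjusted p = 3.83e-07, limma) in KO MSCs on the log2 scale. *Lypd1* fell by 1.44 in WT (adjusted p = 3.93e-05, limma) and fell by 1.66 in KO MSCs (adjusted p = 1.2e-05, limma), while *Ly6h* was listed at 0 in all libraries.

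*Thy1*, a lipid-anchored glycoprotein of fibroblasts and T cells, lies on chromosome 9 (44043384 to 44048579, plus strand). It was read at 62.1 and 62.6 RPKM in undifferentiated WT and at 88.2 and 90.0 RPKM in differentiating WT MSCs. In KO MSCs it was read at 64.7 and 64.9 RPKM before and at 68.1 and 61.2 RPKM after induction. Differentiating WT MSCs stood above all others, and the differentiating KO libraries overlapped both undifferentiated groups. *Thy1* rose by 0.52 ± 0.05 (SE) on the log2 scale in WT (adjusted p = 0.000275, limma), and in KO MSCs the difference was 0.00 (95% interval -0.13 to 0.12). The interaction was -0.52 (adjusted p = 0.00355, limma). KO minus WT was -0.46 after induction (adjusted p = 0.00186, limma) and 0.06 before it (95% interval -0.07 to 0.18). The difference in KO MSCs had opposite signs when replicate 1 or replicate 2 of the differentiating KO MSCs was left out, at -0.08 (adjusted p = 0.0304, limma) and 0.07 (adjusted p = 0.0454, limma), and with quantile normalization it was 0.13 (adjusted p = 0.0164, limma).

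*Nt5e*, the ectoenzyme CD73, lies on chromosome 9 (88327197 to 88372092, plus strand) and had the lowest mean of the panel before induction in WT MSCs. Its levels were 6.57 and 6.16 RPKM in undifferentiated WT, 5.54 and 5.06 in differentiating WT, 5.17 and 5.09 in undifferentiated KO and 4.49 and 3.92 in differentiating KO MSCs. Undifferentiated WT MSCs were highest and differentiating KO MSCs lowest, and the 2 groups between them overlapped. Induction lowered *Nt5e* by -0.26 ± 0.08 (SE) in WT (adjusted p = 0.0287, limma) and -0.28 in KO MSCs (adjusted p = 0.0181, limma) on the log2 scale. KO minus WT was -0.31 before (adjusted p = 0.0325, limma) and -0.33 after induction (adjusted p = 0.0207, limma), and the interaction was -0.02 (95% interval -0.30 to 0.25). Each of these 4 calls was lost, with adjusted p from 0.0512 to 0.144 (limma), on leaving out a library. This held for each undifferentiated library and replicate 2 of differentiating WT for induction in WT, and for each undifferentiated KO library and replicate 2 of differentiating KO for induction in KO MSCs. It also held for each undifferentiated library in the first genotype comparison, and for each differentiating WT library and replicate 2 of differentiating KO in the second. With only the 4 libraries compared in the fit, induction in KO MSCs had an adjusted p of 0.0523 and KO against WT after induction one of 0.0943 (limma).

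The adenosine pathway around CD73 had 10 listed genes, of which 9 were tested. Induction raised 3 and lowered 4 in WT MSCs (3 and 3 with quantile normalization), and raised 3 and lowered 6 in KO MSCs (3 and 5 with quantile normalization). *Entpd2*, an ectonucleotidase that breaks down extracellular ATP, went from 0.352 and 0.393 to 8.58 and 8.34 RPKM in WT and from 0.251 and 0.302 to 16.03 and 19.0 RPKM in KO MSCs. *Entpd1* (CD39), which supplies AMP to CD73, rose by 1.47 (adjusted p = 9.04e-05, limma) and 1.70 (adjusted p = 2.82e-05, limma). *Adora2b*, an adenosine receptor, was higher in undifferentiated KO than WT MSCs by 1.02 (adjusted p = 0.000259, limma), and *Alpl*, the alkaline phosphatase that also releases adenosine, was lower by -0.97 (adjusted p = 0.000327, limma).

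*Cd44*, the hyaluronan receptor, lies on chromosome 2 (102811141 to 102901665, minus strand). Its levels were 177 and 170 RPKM in undifferentiated WT and 97.1 and 98.3 RPKM in differentiating WT MSCs. In KO MSCs they were 229.7 and 232 RPKM before and 63.0 and 52.9 RPKM after induction. KO MSCs thus held both the highest and the lowest group, and no groups overlapped. *Cd44* fell by 0.83 ± 0.08 (SE) on the log2 scale in WT (adjusted p = 0.000232, limma) and fell by 2.00 in KO MSCs (adjusted p = 3.79e-06, limma), and the interaction was -1.17 (adjusted p = 0.00127, limma). KO minus WT was 0.41 before induction (adjusted p = 0.0125, limma) and -0.76 after it (adjusted p = 0.00157, limma). The value before induction did not pass when any undifferentiated library was left out, with adjusted p from 0.051 to 0.0768 (limma).

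Of 11 genes for hyaluronan synthesis and breakdown and for partners of CD44, 4 rose and 5 fell with induction in WT MSCs. In KO MSCs 2 rose and 7 fell (2 and 6 with quantile normalization). *Cemip*, which promotes hyaluronan breakdown, went from 89.4 and 89.0 to 14.6 and 15.0 RPKM in WT and from 86.5 and 85.6 to 11.2 and 8.72 RPKM in KO MSCs. *Has1*, a hyaluronan synthase, fell by 1.93 in WT MSCs (adjusted p = 2.55e-05, limma) and from 3.48 and 3.33 to 0.945 and 1.12 RPKM in KO MSCs. *Msn*, or moesin, which links CD44 to the actin cortex, had an interaction of -1.26 (adjusted p = 9.43e-05, limma), with 79.9 and 76.2 RPKM in undifferentiated WT, 50.9 and 50.4 in differentiating WT, 105 and 105 in undifferentiated KO and 28.7 and 28.3 in differentiating KO MSCs. *Hmmr* had the largest interaction of the list, -1.97 (adjusted p = 0.00172, limma). It was read at 14.8 and 14.9 RPKM in undifferentiated WT, 8.13 and 9.41 in differentiating WT, 20.7 and 20.5 in undifferentiated KO and 3.58 and 2.55 in differentiating KO MSCs. The order of the 4 groups was thus that of *Cd44* for both *Msn* and *Hmmr*. *Spp1*, or osteopontin, a ligand of CD44, was lower in differentiating KO than WT MSCs by -0.83 (adjusted p = 0.000856, limma).

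*Mcam*, an adhesion molecule of endothelial and perivascular cells, lies on chromosome 9 (44134469 to 44142727, plus strand). It was read at 10.1 and 11.2 RPKM in undifferentiated WT and at 6.35 and 6.38 RPKM in undifferentiated KO MSCs. After induction the levels were 1.56 and 1.52 RPKM in WT and 0.989 and 0.833 RPKM in KO MSCs. Every differentiating library lay below every undifferentiated one, and within each state KO lay below WT. *Mcam* fell by 2.72 ± 0.09 (SE) on the log2 scale in WT (adjusted p = 3.62e-06, limma) and fell by 2.68 in KO MSCs (adjusted p = 2.04e-06, limma), with an interaction of 0.04 (95% interval -0.27 to 0.34). Between genotypes, KO minus WT was -0.74 before (adjusted p = 0.00291, limma) and -0.70 after induction (adjusted p = 0.00272, limma).

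*Alcam*, an adhesion molecule that binds CD6 and itself, lies on chromosome 16 (52248996 to 52454074, minus strand). Its levels were 6.40 and 6.44 RPKM in undifferentiated WT, 4.07 and 3.95 in differentiating WT, 4.26 and 4.16 in undifferentiated KO and 4.90 and 4.35 in differentiating KO MSCs. Undifferentiated WT MSCs stood apart from the other 3 groups, which lay within 1 RPKM of each other without overlap. *Alcam* fell by 0.67 ± 0.06 (SE) on the log2 scale in WT (adjusted p = 0.000207, limma), and in KO MSCs the difference was 0.13 (95% interval -0.02 to 0.28, adjusted p = 0.102, limma), or 0.21 (adjusted p = 0.0112, limma) without replicate 2 of differentiating KO MSCs. The interaction was 0.80 (adjusted p = 0.00177, limma). Between genotypes, KO minus WT was -0.60 before induction (adjusted p = 0.00187, limma). After induction it was 0.20 (adjusted p = 0.0456, limma), which did not pass with replicate block (adjusted p = 0.0532, limma) or when any library but replicate 2 of the differentiating KO MSCs was left out (adjusted p from 0.0802 to 0.181, limma). It also did not pass without a minimum level, without the variance trend or with only the 4 differentiating libraries fitted (adjusted p of 0.0636, 0.0534 and 0.156, limma).

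*Nes*, the intermediate filament gene of neural and mesenchymal progenitors, lies on chromosome 3 (87971078 to 87980451, plus strand). It was read at 7.89 and 7.68 RPKM in undifferentiated WT and at 11.7 and 11.4 RPKM in undifferentiated KO MSCs. After induction the levels were 0.777 and 0.751 RPKM in WT and 0.398 and 0.371 RPKM in KO MSCs. *Nes* had the widest range of the panel, with the highest group mean 30.0 times the lowest, and no groups overlapped. It fell by 3.19 ± 0.06 (SE) on the log2 scale in WT (adjusted p = 6.37e-07, limma) and fell by 4.59 in KO MSCs (adjusted p = 1.16e-07, limma), and the interaction was -1.40 (adjusted p = 0.000417, limma). The genotypes differed, KO minus WT, by 0.56 before (adjusted p = 0.00159, limma) and -0.83 after induction (adjusted p = 0.000675, limma).

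Among 8 intermediate filament partners of nestin, 4 were tested. With induction 3 rose in WT (2 with quantile normalization) and 2 in KO MSCs, while none of the 4 fell. *Vim*, the main filament gene of mesenchymal cells, went from 2920.2 and 2949 to 4269.6 and 4344 RPKM in WT and from 3231 and 3161 to 4144 and 3905 RPKM in KO MSCs. *Synm* (synemin) rose by 1.07 (adjusted p = 0.000107, limma) and 1.48 (adjusted p = 1.57e-05, limma) on the log2 scale. The difference of *Nes* thus had the opposite sign to those of *Vim* and *Synm* in both genotypes.

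In the comparison of genotypes, 8 markers passed in undifferentiated MSCs, with *Eng*, *Ly6a*, *Cd44*, *Pdgfra* and *Nes* higher and *Nt5e*, *Mcam* and *Alcam* lower in KO. Of all genes 32.2% passed, 14.7% higher and 17.5% lower. No marker was a DEG, beside 1.70% of all genes, 0.613% higher and 1.09% lower. The panel's median log2 difference was 0.11, beside 0.00 over all genes. These values are RNA levels and not amounts of surface protein. The paper detected no genotype difference in how frequent the MSC surface markers it tested were. Without any of the 4 undifferentiated libraries 5 markers passed, and the count of all genes passing fell from 4943 to between 2289 and 2906.

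In differentiating MSCs 9 markers passed, with *Ly6a*, *Pdgfra* and *Alcam* higher and *Eng*, *Thy1*, *Nt5e*, *Cd44*, *Mcam* and *Nes* lower in KO. Of all genes 40.7% passed, 17.8% higher and 22.9% lower. No marker was a DEG, beside 3.30% of all genes, 1.36% higher and 1.95% lower. The median log2 difference of the panel was -0.35, beside -0.01 over all genes. Without replicate 2 of the differentiating WT MSCs 7 markers passed, and 3096 of all genes in place of 6251. The summed level of the panel, of which *Ly6a* made up most, was 856 to 857 RPKM in undifferentiated WT, 1088 to 1103 in undifferentiated KO, 2185 to 2234 in differentiating WT and 2867 to 2952 RPKM in differentiating KO MSCs.

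A list of 20 other stromal and progenitor markers was read beside the panel, of which 19 were tested and *Gli1* was too low. After induction 11 rose and 6 fell in WT (10 and 6 with quantile normalization) and 11 rose and 6 fell in KO MSCs, with a median log2 difference of 0.44 and 0.25. *Islr* (meflin), a stromal surface protein, went from 14.2 and 13.8 to 91.1 and 86.4 RPKM in WT and from 6.98 and 8.49 to 128 and 139 RPKM in KO MSCs. *Susd2* rose by 2.87 (adjusted p = 2.2e-05, limma) and 3.94 (adjusted p = 3.63e-06, limma) and *Fap*, a protease of activated fibroblasts, by 1.78 (adjusted p = 4.9e-06, limma) and 1.88 (adjusted p = 2.21e-06, limma). *Itga11*, a collagen-binding integrin, fell by 1.54 in WT MSCs (adjusted p = 5.89e-07, limma) and from 56.7 and 56.0 to 19.4 and 19.5 RPKM in KO MSCs. *Grem1*, a BMP antagonist, fell by 1.53 in WT (adjusted p = 3.39e-06, limma) and fell by 1.93 in KO (adjusted p = 8.27e-07, limma). *Icam1* rose by 1.46 in WT MSCs (adjusted p = 3.36e-06, limma) and from 3.09 and 3.20 to 6.62 and 6.61 RPKM in KO MSCs. In KO MSCs *Cspg4* (NG2) fell by 1.91 (adjusted p = 1.98e-06, limma) and *Itgav* fell by 1.53 (adjusted p = 7.06e-07, limma). In WT MSCs *Cspg4* went from 12.1 and 11.2 to 9.57 and 9.05 RPKM and *Itgav* from 89.0 and 90.7 to 42.5 and 43.4 RPKM.

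**Figure D3:**
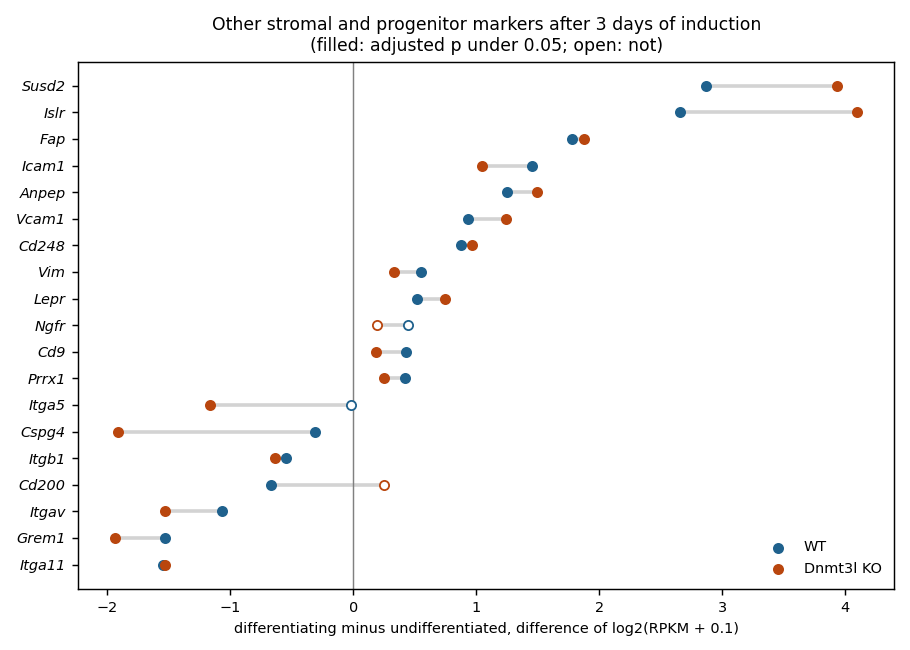
Difference of log2(RPKM + 0.1) between differentiating and undifferentiated MSCs for 19 other stromal and progenitor markers, ordered by the value in WT, with WT and KO joined by a grey line. Filled points had an adjusted p under 0.05; *Islr* and *Susd2* rose most in both genotypes, and *Cspg4* fell by 1.91 in KO MSCs, the lower point on its line.

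Between genotypes, 7 of the 19 were higher and 6 lower in undifferentiated KO MSCs (5 and 6 with quantile normalization). The largest differences were -1.38 for *Cd200* (adjusted p = 0.00117, limma) and -1.17 for *Itga11* (adjusted p = 1.18e-05, limma), both DEGs, followed by 0.89 for *Icam1* (adjusted p = 0.000302, limma) and -0.85 for *Islr* (adjusted p = 0.00226, limma). After induction 7 were higher and 7 lower in KO (8 and 7 with quantile normalization), with *Itga11* at -1.16 (adjusted p = 8.8e-06, limma), *Cspg4* at -0.99 (adjusted p = 0.000615, limma) and *Susd2* at 0.99 (adjusted p = 0.00506, limma). *Itga11* was read at 128 and 127 RPKM in undifferentiated WT and 56.7 and 56.0 RPKM in undifferentiated KO MSCs, and at 44.0 and 43.1 against 19.4 and 19.5 RPKM after induction. *Itgav* at -0.64 (adjusted p = 0.000543, limma), *Itga5* at -0.61 (adjusted p = 0.000792, limma) and the leptin receptor *Lepr* at 0.61 (adjusted p = 0.00694, limma) also differed after induction.

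Markers of other cells that such cultures may hold were read in the same libraries, and in bulk RNA fewer cells of a type and less RNA per cell cannot be told apart. The 10 leukocyte and macrophage markers summed to 17.5 to 18.6 RPKM in undifferentiated WT, 30.1 to 34.2 in differentiating WT, 8.58 to 9.43 in undifferentiated KO and 13.6 to 14.8 RPKM in differentiating KO MSCs. *Cd3e* was listed at 0 in all libraries, *Lyz2* (lysozyme) was the highest at up to 26.5 RPKM, and without *Lyz2* and *Cd14* no gene of the list exceeded 2.79 RPKM. Of 7 tested, 5 rose and 1 fell with induction in WT (3 and 1 with quantile normalization), 2 rose and 1 fell in KO, and in KO against WT 2 were higher and 2 lower before (1 and 2 with quantile normalization) and 1 higher and 5 lower after it. The part of these cells in the values of the panel was not tested.

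The 8 endothelial markers summed to 2.71 to 2.99 RPKM in undifferentiated WT and 2.84 to 2.86 RPKM in undifferentiated KO MSCs, and to 47.7 to 57.9 and 128 to 143 RPKM after induction. *Cd34*, which progenitor and stromal cells also express, made up nearly all of the rise, from 1.24 and 1.36 to 54.5 and 44.7 RPKM in WT and from 1.11 and 1.20 to 123 and 138 RPKM in KO MSCs. Without *Cd34* and *Tek* no endothelial marker exceeded 1.18 RPKM, and *Pecam1* and *Cdh5* stayed under 0.09 RPKM. Of 4 tested, 3 rose and 1 fell with induction in each genotype. *Tek*, an angiopoietin receptor, rose by 1.60 in WT (adjusted p = 0.000188, limma) and 2.99 in KO (adjusted p = 8.23e-06, limma), up to 4.13 RPKM, and *Kdr*, a VEGF receptor, rose by 1.98 (adjusted p = 0.000281, limma) and 1.48 (adjusted p = 0.000671, limma), up to 0.584 RPKM. The sum moved in the direction of *Pdgfra* and *Ly6a*, and the part of endothelial cells in the values of the panel was not tested.

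The summed level of pericyte and smooth muscle markers fell beside *Mcam* and *Nes*, and *Acta2* and *Tagln* made up most of it in each group. The 9 genes summed to 3450 to 3666 RPKM in undifferentiated WT and 3665 to 3698 RPKM in undifferentiated KO MSCs, and to 643 to 730 and 249 to 358 RPKM after induction. *Acta2*, the smooth muscle actin, went from 2052 and 2165 to 365 and 419 RPKM in WT and from 2236 and 2213 to 198 and 132 RPKM in KO MSCs. *Tagln* fell by 2.44 in WT MSCs (adjusted p = 5.56e-05, limma) and from 1426 and 1417 to 138 and 96.6 RPKM in KO MSCs. In contrast, *Rgs5*, a pericyte gene, rose by 3.81 in WT (adjusted p = 3.31e-06, limma) and 4.44 in KO MSCs (adjusted p = 1.06e-06, limma). Of 8 tested, 4 rose and 4 fell in WT (2 and 4 with quantile normalization) and 3 rose and 4 fell in KO MSCs, and in KO against WT 1 was higher and 3 lower before induction and 6 were lower after it. The 6 Schwann and neural markers summed to 53.3 to 54.7 and 44.9 to 45.0 RPKM before and 16.7 to 17.9 and 10.8 to 12.5 RPKM after induction in WT and KO. Of 3 tested, 2 rose and 1 fell with induction in each genotype (1 and 1 with quantile normalization), 1 was lower in KO before and 2 after it. *Tubb3* made up most of that sum before induction and fell by 2.71 (adjusted p = 5.13e-05, limma) in WT and fell by 3.46 in KO (adjusted p = 1.05e-05, limma). *S100b*, the largest part of the sum after induction in both genotypes, rose by 1.47 in WT (adjusted p = 7.53e-06, limma) and 1.71 in KO (adjusted p = 2.46e-06, limma), while *Sox10* and *Sox2* stayed under 0.09 RPKM. The part of these cells in the values of *Mcam* and *Nes* was not tested.

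The summed level of proliferation markers had the order of groups of *Cd44* and *Nes*. The 10 genes summed to 338 to 342 RPKM in undifferentiated KO, 255 to 257 in undifferentiated WT, 146 to 158 in differentiating WT and 70.6 to 91.6 RPKM in differentiating KO MSCs. All 10 fell with induction in WT and all 10 in KO MSCs. In KO against WT 4 were higher before induction (5 with quantile normalization) and all 10 were lower after it. *Mki67* was higher in undifferentiated KO MSCs by 0.60 (adjusted p = 0.0363, limma) and lower in differentiating KO MSCs by -1.68 (adjusted p = 0.00134, limma). Whether the share of cycling cells moved *Cd44* or *Nes* was not tested.

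**Figure D4:**
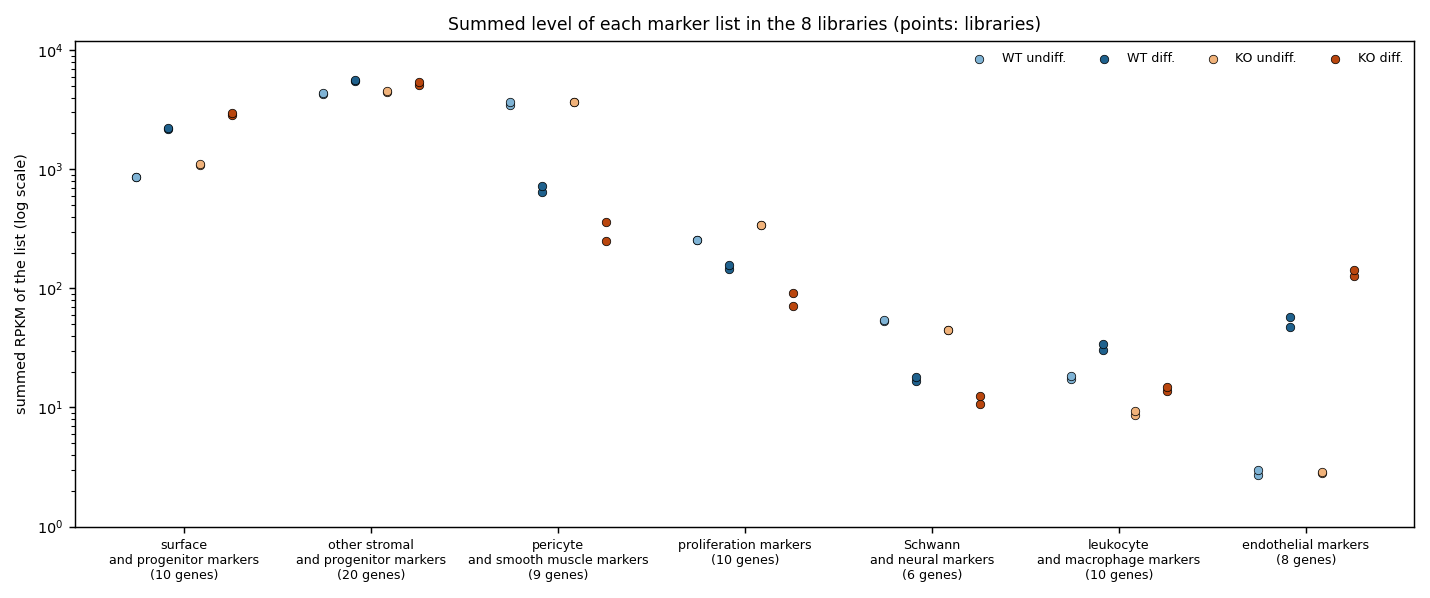
Summed RPKM of 7 marker lists (vertical log axis) in each of the 8 libraries, which are the points, coloured by group. The sum of the 10 surface and progenitor markers, mostly *Ly6a*, rises with induction, although 6 of the 10 fell in each genotype. The pericyte sum, mostly *Acta2* and *Tagln*, the proliferation sum and the Schwann sum, mostly *Tubb3* before induction, fall. The endothelial sum rises from under 3 to between 47.7 and 143 RPKM, and *Cd34* made up nearly all of that rise.

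Of 8 osteoblast markers, 2 rose and 2 fell with induction in WT and 2 rose and 4 fell in KO MSCs. *Ibsp* (bone sialoprotein) went from 49.5 and 51.3 to 729 and 661 RPKM in WT and from 20.2 and 19.7 to 386 and 313 RPKM in KO MSCs. *Sp7* (osterix) fell by 1.25 in WT (adjusted p = 0.000137, limma) and fell by 2.36 on the log2 scale in KO MSCs (adjusted p = 5.99e-06, limma). In differentiating KO against WT MSCs 6 were lower and none of the 8 was higher, with *Ibsp* at -0.997 (adjusted p = 0.00146, limma), and before induction 1 was higher and 3 were lower.

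Genes most like each marker were sought among 12269 genes that averaged 1 RPKM or more, by Pearson's r of log2(RPKM + 0.1) over the 8 libraries, which fall into 4 groups, so that r mostly compares group means. The 3 nearest of *Pdgfra* were *Gprc5b*, *Tnfrsf1a* and *Efemp1* (r of 0.9998 to 0.9992), and those of *Ly6a* were *Nod1*, *Fbxl5* and *Adcy1* (0.9993 to 0.9988). For *Mcam* they were *Ctnna1*, *Enah* and *Casc4* (0.9993 to 0.9990), for *Nes* *Ptgs2os2*, *Nanos1* and *Rps6ka2* (0.9991 to 0.9988), for *Cd44* *Ndc1*, *Nhp2* and *Fen1* (0.9989 to 0.9986) and for *Pdgfrb* *Adra1d*, *Armc8* and *Mex3a* (0.9986 to 0.9979). The other 4 markers had less close neighbours, of which *Alcam* had *Rbm39*, *Zfp266* and *Fig4* (0.9917 to 0.9842), *Eng* had *Myadm*, *Ptprf* and *Zmat3* (0.9883 to 0.9826), *Thy1* had *Rrm1*, *Gap43* and *Mir181b-2* (0.9874 to 0.9779) and *Nt5e* had *Edem3*, *Dnajb4* and *Ptp4a2* (0.9849 to 0.9716).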

How the data were processed

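RNA was measured in 8 libraries, 2 for each of 4 groups set by genotype and state, which were assigned from the sample labels; 0 columns of values lacked a sample. Ribosomal RNA was depleted, and the authors aligned stranded reads to mm10 with TopHat2 2.1.0 and made gene values with Cuffdiff (Cufflinks 2.2.1, per the submitters' processing notes); the library normalization is not given in the sources used here. The deposited values are RPKM per gene and library. RPKM are not counts, so log2(RPKM + 0.1) of the 15342 genes that averaged 0.1 RPKM or more was fitted in limma 3.58.1 (R 4.3.3) with a mean per group over all 8 libraries, a variance trend and empirical Bayes moderation. Fold changes are on that scale, which understates changes of low genes. P-values were adjusted over all genes tested (Benjamini-Hochberg). The fit, tested on simulated data for KO against WT in differentiating MSCs with 15342 genes, recovered 97 of 100 genes changed by 1.5 and 78 of 100 changed by 0.7 on the log2 scale, with 9 false calls. The changed genes were drawn from the higher expressed ones, and the noise was normal and independent between genes. Far fewer genes changed than passed in the data, and recovery of the lowest genes was not tested.

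Depth was estimated from steps between low values, as the depth of each library at which most of them were whole reads within 0.1 read. At these depths 80.7% of 4204 were whole, too few for a count test. The 20% expected by chance holds for a depth fixed beforehand, so setting it beside 80.7% is no test of the estimate. Intervals cover 95%. Named were all 10 markers and, of each other list, the 2 genes (6 for other stromal markers) with the largest difference past the test and an average of 1 RPKM or more, plus genes named for being near 0, for making up a sum or for their group order, chosen after their values were seen. Some genes picked by this rule are not printed. The markers and lists (other stromal markers, PDGF ligands, TGF-β and BMP receptors, adenosine pathway, hyaluronan, Ly6 family, filaments, pericyte, leukocyte, endothelial, Schwann, osteoblast, proliferation) were chosen with earlier results of these data known. Alternatives changed the pseudocount, minimum, normalization, trend, replicate block and libraries fitted. Python 3.11.15, numpy 2.4.6, pandas 2.3.3 and matplotlib 3.10.9 were used.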

Additional observations from a re-analysis of the deposited data

Results flagged for a closer look

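Induction differed between the genotypes by the interaction term, which is the log2 difference between differentiating and undifferentiated MSCs in KO minus that in WT, for 5 of the 10 markers. The value was -0.53 for *Eng* (adjusted p = 0.00111, limma), whose difference was 0.29 in WT and -0.24 in KO MSCs. For *Thy1* it was -0.52 (adjusted p = 0.00355, limma), with 0.52 in WT and 0.00 in KO. *Cd44* had -1.17 (adjusted p = 0.00127, limma), with -0.83 in WT and -2.00 in KO. *Nes* had -1.40 (adjusted p = 0.000417, limma), with -3.19 in WT and -4.59 in KO. *Alcam* was the one with a positive value, 0.80 (adjusted p = 0.00177, limma), with -0.67 in WT and 0.13 in KO. All 5 passed with the same sign in each of the alternatives run, including each library left out in turn. Of all genes 39.4% passed this test.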

How the results depend on the processing

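Of 890 repeats of the 50 single values of the markers under 18 alternatives, 834 kept direction and side of the threshold, 37 lost and 2 gained the call, and 17 changed sign. None of the 40 values past the test changed sign. The sign changes were in values near 0 in the main fit. They are counted apart from the gains, also where the changed value passed the test. Induction of *Thy1* in KO with quantile normalization was such a value (adjusted p = 0.0164, limma). With quantile normalization the interaction was -0.073 for *Ly6a*, -0.019 for *Mcam* and 0.039 for *Pdgfra*, KO minus WT of *Pdgfrb* after induction was 0.026, and induction of *Thy1* in KO was 0.13. With a pseudocount of 0.01 the interaction of *Mcam* was -0.010. With a library left out, the interaction ran from -0.076 to 0.15 for *Mcam*, from -0.12 to 0.072 for *Nt5e*, from -0.090 to 0.031 for *Pdgfra* and from -0.027 to 0.066 for *Pdgfrb*, KO minus WT of *Pdgfrb* after induction from -0.067 to 0.025, and induction of *Thy1* in KO from -0.082 to 0.072. The cause of these changes was not tested.

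The count of all genes passing in differentiating KO against WT was 6251, 3037 with only these 4 libraries and 3096 to 6318 with a library left out; in undifferentiated cells it was 4943, or 2289 to 5767. Markers passing in undifferentiated KO against WT were 8, or 5 to 8 with a library left out. Markers past the interaction and beyond 1 were 2, or 1 with a pseudocount of 1 (*Cd44*; *Nes* was then at -0.86).

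Replicate numbers did not pair the libraries: deviations of same-numbered libraries correlated at -0.0936 to 0.0351 over 12269 genes. With replicate block, 8 of 10 markers passed in undifferentiated and 8 in place of 9 in differentiating KO against WT, where *Alcam* had an adjusted p of 0.0532 (limma); no other call of the markers changed. The scalings moved the median of all genes by at most 0.08 (log2). RPKM holds no counts, so depth is an estimate; at the lowest level, *Nes* with 109 reads, counting error alone is 9.59%.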
